A study of Mus musculus with 16 samples.

Results

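The data set described here measured the distance between normal splenic B cells and the tumors of Eμ-xbp-1s mice that are labelled as myeloma. It comprised 11 of the 16 arrays of the series, taken by their labels: 6 arrays of Eμ-xbp-1s multiple myeloma (MM) and 5 arrays of B cells from nontransgenic mice. The nontransgenic B cells were purified from the spleens of 20-week-old mice with magnetic beads against B220, with 1 mouse per array. RNA of the MM group came from myeloma tumors, and the sources used here name neither a sort of the tumor cells nor the tissue and age behind each of these arrays, while the study places MM in aged Eμ-xbp-1s mice. Transgenic mice and their nontransgenic littermates shared an inbred C57BL/6 background. In Eμ-xbp-1s mice the immunoglobulin heavy chain enhancer (Eμ) and a VH promoter drive the cDNA of the spliced form of XBP-1, followed by an internal ribosome entry site and eGFP, and the enhancer is also active in some T cells. Genotype and kind of sample differ together between the groups, tissue, age and purification may differ as well, and none of these can be told apart. Nothing in the labels says that the 6 tumors came from separate mice, so the p-values describe the spread among these arrays, part of which may be technical. The other 5 arrays, of B220-purified splenic B cells from 20-week-old Eμ-xbp-1s mice, were left out of the test and are given as levels beside it.

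A mature B cell carries its antigen receptor on the surface together with co-receptors such as CD21 and CD23, recirculates through follicles by chemokine receptors such as CXCR5 and CCR7, and is held in that state by transcription factors such as PAX5. When it becomes a plasma cell, IRF4 and BLIMP-1 silence this program, the cell enlarges its endoplasmic reticulum (ER) and it secretes antibody. XBP-1 is needed for that last step: the IRE1 endonuclease splices its mRNA during the unfolded protein response (UPR), and the spliced form, XBP-1s, turns on chaperones and secretory machinery. MM is a malignancy of plasma cells that grow in the bone marrow among stromal cells, macrophages and blood vessels.

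Expression was measured with Affymetrix arrays that carry 45037 probe sets other than the spiked controls. Values are probe set intensities on a linear scale. Intensities under 50 were raised to 50, values were taken to log2, and limma was run on the 21894 probe sets that exceeded 100 on over 20% of the 11 arrays. A probe set was called higher or lower in MM at an adjusted p under 0.01, and verbs of change below are kept for such calls. A gene is shown by its brightest probe set, and a log2 difference of MM minus nontransgenic B cells is given ± its standard error. Values on single arrays follow the order of nontransgenic arrays 1 to 5 and then of MM arrays 1 to 6, named MM1 to MM6. Where most arrays of the lower group sat at or under 50, the difference is written as at least its value.

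Xbp1 itself, the transgene's gene, was read at 1802, 2452, 2148, 1917 and 2015 on nontransgenic arrays 1 to 5 and at 1748, 2541, 3631, 4979, 1477 and 1527 on MM arrays 1 to 6. The groups overlapped, the difference was 0.21 ± 0.30 on the log2 scale (limma adjusted p = 0.659), and none of the 4 tested probe sets of Xbp1 was called. Eμ-xbp-1s B cells lay at 2040.2 to 3108. Which of these probe sets lie in the sequence carried by the transgene was not analysed here, so the gene does not check the labels.

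The 6 MM arrays were not alike. Array medians lay between 69.3 and 82.9 in MM and between 70.8 and 73.0 in nontransgenic B cells. Lists of marker genes of other cell types, as mean log2 levels over the list, set MM1 to MM3, MM4 with MM5, and MM6 apart. Neutrophil genes stood at 11.4 and 10.4 in MM4 and MM5. They stood at 6.49 to 7.04 on the other MM arrays and at 6.38 to 6.68 in nontransgenic B cells. Erythroid genes stood at 10 and 10.8 against 6.46 to 6.73 and 6.50 to 6.81. Eμ-xbp-1s B cells, at 8.01 to 9.81 and 7.20 to 8.69 for these lists, also lay above nontransgenic B cells and the other MM arrays. T cell genes stood at 8.0 to 8.39 in MM1 to MM3, at 6.57 to 6.89 in the other MM arrays and at 6.59 to 6.69 in nontransgenic B cells. Early B cell genes stood at 8.24 in MM6 and at no more than 7.17 elsewhere in MM. For these reasons counts are also given without MM4 and MM5. Of 22 tested plasma cell genes none was higher in the tumors and Irf4 was lower, against 4.66% and 4.76% of all genes. MM6 carried the precursor B cell genes Vpreb1 (4505) and Rag1 (413). MM therefore stands here for the labelled arrays and not for a cell type checked by its markers.

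Across all genes, 864 probe sets (3.95% of those tested) were higher and 1236 (5.65%) were lower in MM than in nontransgenic B cells. The size of the difference was moderate for most probe sets, with a median absolute log2 difference of 0.35, but 3033 (13.9%) differed by more than 1, 603 (2.75%) by more than 2, and 136 by more than 3. The called probe sets had median log2 differences of 1.41 (higher) and -1.35 (lower). By gene, through the brightest probe set of each of 11079 tested genes, 516 (4.66%) were higher and 527 (4.76%) lower. The lower calls held more transcripts with no listed gene name: such probe sets made up 13.6% of those tested, 7.75% of the higher calls and 20.5% of the lower calls. These counts depended on single arrays. Leaving out 1 nontransgenic array at a time (arrays 1 to 5) gave 415, 444, 498, 451 and 425 higher and 656, 649, 755, 640 and 698 lower probe sets, and leaving out MM6 gave 1335 higher ones. Of the 143 called genes named in the following paragraphs, 89 were called whichever array was left out. Among the others, Cdh5, Hk2, Mcm10, Kit and Procr kept their call in 1 of 11 such fits. Esam, Plvap, Clec7a, C1qa, C2 and Foxo1 kept theirs in 2 of 11. A call given below without a p-value for left-out arrays is therefore not always a stable one. Without MM4 and MM5 the counts were 898 and 979, of which 612 and 823 were among the calls from all arrays, and 510 (4.65%) and 422 (3.85%) genes were called. Scaling each array to the same median moved the median log2 difference of all probe sets by -0.10 and the calls to 700 higher and 2072 lower, so that 25.3% rather than 41.1% of the calls were higher.

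**Figure D1:**
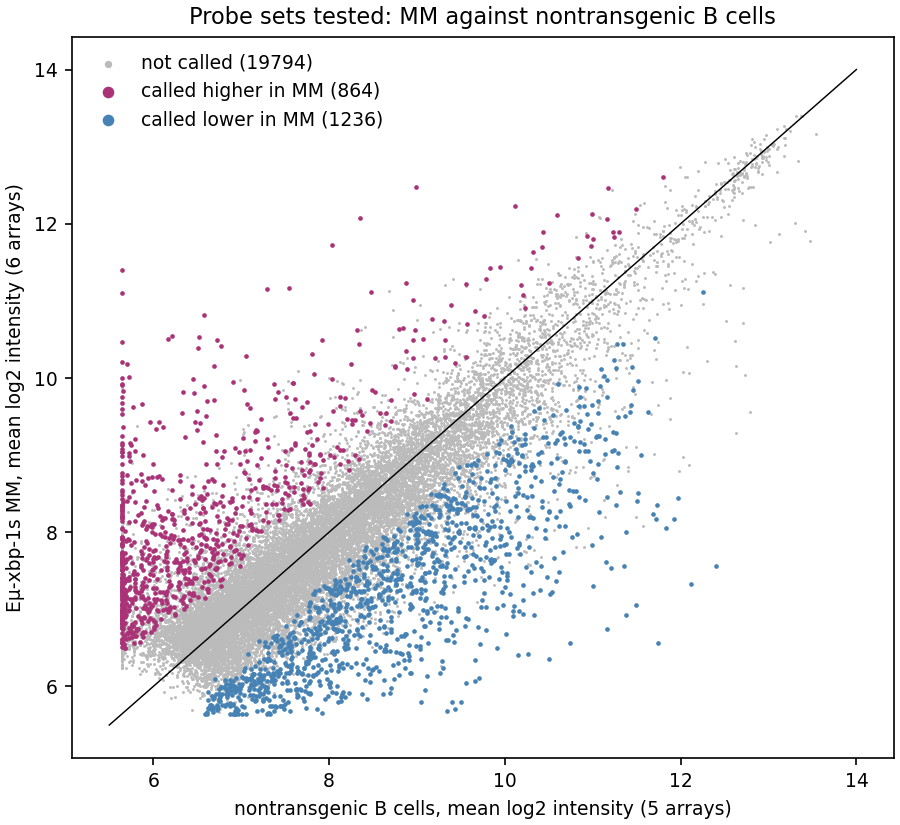
Mean log2 intensity of each of the 21894 tested probe sets in nontransgenic B cells (horizontal axis) and in MM (vertical axis). Coloured points are the 864 probe sets called higher and the 1236 called lower, grey points were not called, and the line marks equal levels; called probe sets lie off the line on both sides and at all levels above the floor of 50.

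Separation of the groups was more common than a call. All 6 MM arrays lay above all 5 nontransgenic arrays for 1376 probe sets (6.28%) and below them for 2091 (9.55%), and 1497 of these were not called. MM arrays spread more widely: the median SD over probe sets was 0.45 on the log2 scale in MM (0.39 without MM4 and MM5) and 0.20 in nontransgenic B cells, and 87.5% of probe sets had the larger SD in MM. The root mean square log2 difference over the tested probe sets gives a distance for each pair of arrays. Its median was 0.413 between nontransgenic arrays (0.254 to 0.491), 0.928 between a nontransgenic and an MM array (0.725 to 1.27) and 0.931 between 2 MM arrays (0.368 to 1.10). A pair of tumors was thus about as far apart as a tumor and a normal B cell sample, and the 4 nearest pairs of tumors lay within MM1 to MM3 or were MM4 with MM5. The controls also fell into 2 sets. Nontransgenic arrays 1 and 2 were 0.280 apart and arrays 3 to 5 were 0.254 to 0.288 apart, against 0.404 to 0.491 across these sets. The cause was not tested. MM3 lay nearest to nontransgenic B cells (median 0.750), followed by MM2 (0.834), MM1 (0.869), MM4 and MM6 (both 1.06) and MM5 (1.18). Nontransgenic and Eμ-xbp-1s B cells were 0.593 apart (0.445 to 0.868) on the same probe sets, which were chosen on levels in MM and nontransgenic B cells.

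**Figure D2:**
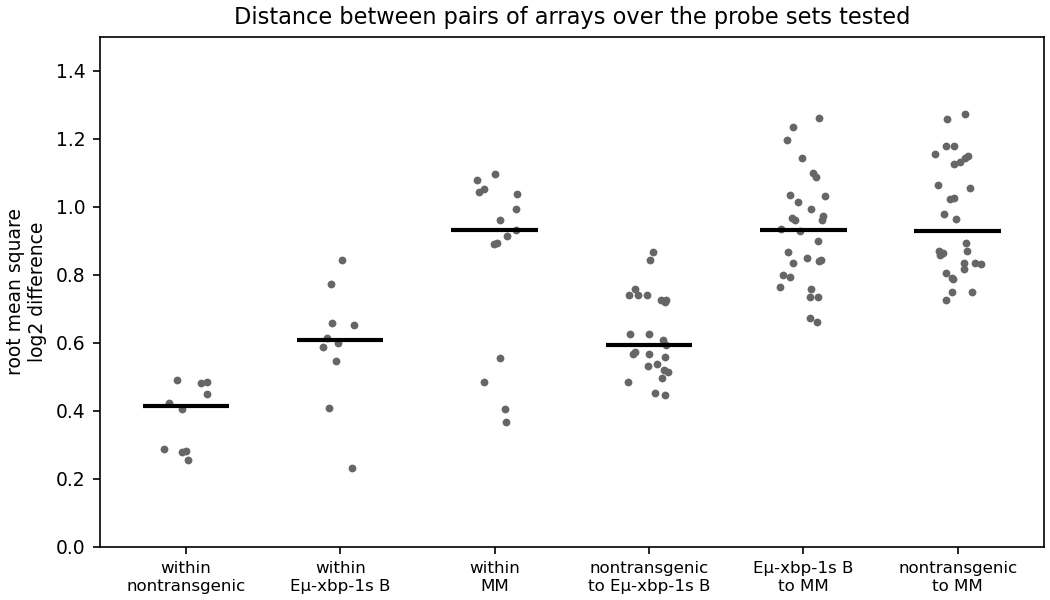
Root mean square log2 difference over the 21894 tested probe sets for every pair of arrays, in columns by the groups of the pair. Each point is 1 pair and the bar is the median; pairs of nontransgenic arrays lie lowest (median 0.413), and pairs of MM arrays (0.931) reach as high as pairs across the groups (0.928).

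The 15 largest rises and falls were ranked among called genes whose groups did not overlap, with immunoglobulin genes left out. Of the rises 7 were members of the stroma and matrix list. Bgn (biglycan, a matrix proteoglycan) was read at 17.2, 24, 16, 15.5 and 14.6 on nontransgenic arrays and at 3381, 4159.7, 2993, 4426, 2713 and 789 on MM arrays 1 to 6, a rise of at least 5.76 ± 0.37 on the log2 scale (adjusted p = 2.47e-06, limma). Cxcl12, the stromal chemokine that binds CXCR4, rose by at least 4.83, Sparc (osteonectin) by at least 4.56, Dcn (decorin) by at least 4.28, and Col4a1, a basement membrane collagen, by 3.80. The others among the 15 largest rises were Serping1 (C1 inhibitor, at least 4.26), the insulin-like growth factor binding proteins Igfbp4 (at least 4.29) and Igfbp7 (3.86), the fatty acid binding proteins Fabp5 (4.34) and Fabp4 (at least 3.96), the secreted chaperone Clu (clusterin, 4.23), the metallothionein Mt1 (4.02), App (3.87), Mfge8 (3.77) and the lysozyme gene Lyz1 (3.73). These genes did not share 1 pattern over the tumors. Fabp5 was read at 3048, 3219, 3869, 621, 876 and 549 on MM1 to MM6, Clu at 5192, 5434, 4407, 1060.4, 698 and 370.4 and Mfge8 at 4437, 4477, 4152, 562, 326 and 579, highest in MM1 to MM3, while Mt1 was read at 323, 442, 1119, 8065, 5746 and 1464, highest in MM4 and MM5. Igfbp4 was as high in Eμ-xbp-1s B cells (536 to 1168) as in MM (612 to 1394), and Bgn was not (17.1 to 69.4 in Eμ-xbp-1s B cells). A switch from at most 50 on every nontransgenic array to more than 100 on every MM array was seen for 57 probe sets. Of these 53 were called, against 3.95% of all tested probe sets called higher. The counts are descriptions only, since such probe sets passed the filter through MM alone and cannot overlap between groups. Besides genes already named, these probe sets included those of Cald1, Col3a1, Fstl1 and Rgs5 (smooth muscle, fibroblast and pericyte products), Cp (ceruloplasmin) and Il33.

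Of the 15 largest falls, ranked in the same way, 6 were members of the mature B cell list and 2 of the homing receptor list. Cxcr5 was in both lists. Cr2 (CD21, the complement receptor) fell from 3509, 3696, 3332, 3457 and 3213 on nontransgenic arrays to 49.4, 263, 167, 33.1, 34.6 and 129 on MM1 to MM6, a difference of -5.19 ± 0.42 on the log2 scale (adjusted p = 1.55e-05, limma), and the 2 groups were far apart on every array. Fcmr (the IgM Fc receptor, -4.80), Fcer2a (CD23, -4.42), Fcrla (-4.15), Ly6d (-3.75), Bank1 (an adaptor of the B cell receptor, -3.37), Niban3 (-3.41) and Ms4a4c (-3.32) were among the 15 largest falls, with the follicle-homing receptors Cxcr5 (-3.70) and Ccr6 (-3.53). The remaining members were Scd1, a stearoyl-CoA desaturase (-3.77), Snn (-3.67), the kinase genes Lrrk2 (-3.40) and Sbk1 (-3.34), and the histone variant gene H3f3b (-3.73 or lower), which was read by 1 tested probe set. The opposite switch, from above 100 on every nontransgenic array to at most 50 on every MM array, was seen for 7 probe sets. All were called, against 5.65% of all tested probe sets called lower. The switch itself excludes overlap, so this count too is a description. These probe sets included those of the receptor gene P2ry10b, at 145, 105, 101, 129 and 134 against 4.53, 16.4, 26.9, 30.7, 11.1 and 34.4, and Serpini1, at 115, 104, 139, 140.4 and 114 against 33.9, 42.2, 49.9, 45.3, 27.3 and 30.1.

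Genes that define the mature B cell were lower in MM. Of 29 tested members of this list 15 were lower and none was higher, against 4.76% of all tested genes called lower, with a median log2 difference of -3.10 (all genes: 0.01). Without MM4 and MM5, 17 were lower, against 3.85% of all genes (median -2.15). In bulk RNA, fewer cells of a type and less RNA per cell cannot be told apart. The list's mean log2 level was 10.9 to 11.1 on nontransgenic arrays, 8.99, 9.01 and 9.34 in MM1 to MM3, 7.27 and 6.49 in MM4 and MM5 and 8.01 in MM6. Members that fell included Cd37 (-3.10), Cd72 (-2.69), Blk, a Src-family kinase of B cells (-3.15), Siglecg, an inhibitory lectin (-2.91), and Cd1d1 (-2.84). Several defining members missed the threshold, and the tumors differed widely in them. Ms4a1 (CD20) was read at 7072, 6225, 7905, 6686 and 7685 on nontransgenic arrays and at 5531, 5485, 3497, 118, 60.3 and 238 on MM1 to MM6 (-3.24 ± 1.16, adjusted p = 0.0654, limma). Cd79a, a signalling chain of the antigen receptor, was read at 2649, 2202, 2644, 422, 62.8 and 3346 on MM1 to MM6 against 6241 to 7662 in nontransgenic B cells (-2.70 ± 0.88, adjusted p = 0.0471; without MM4 and MM5 -1.35, adjusted p = 0.000281). Cd79b behaved alike, with -3.34 over all arrays (adjusted p = 0.0192) and -1.91 without MM4 and MM5 (adjusted p = 6.13e-05). Without MM1 to MM3, 26 members were lower, in a fit that called 17.4% of all genes lower. Eμ-xbp-1s B cells, at 9.62 to 10.8 for the list mean, lay between the groups.

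**Figure D3:**
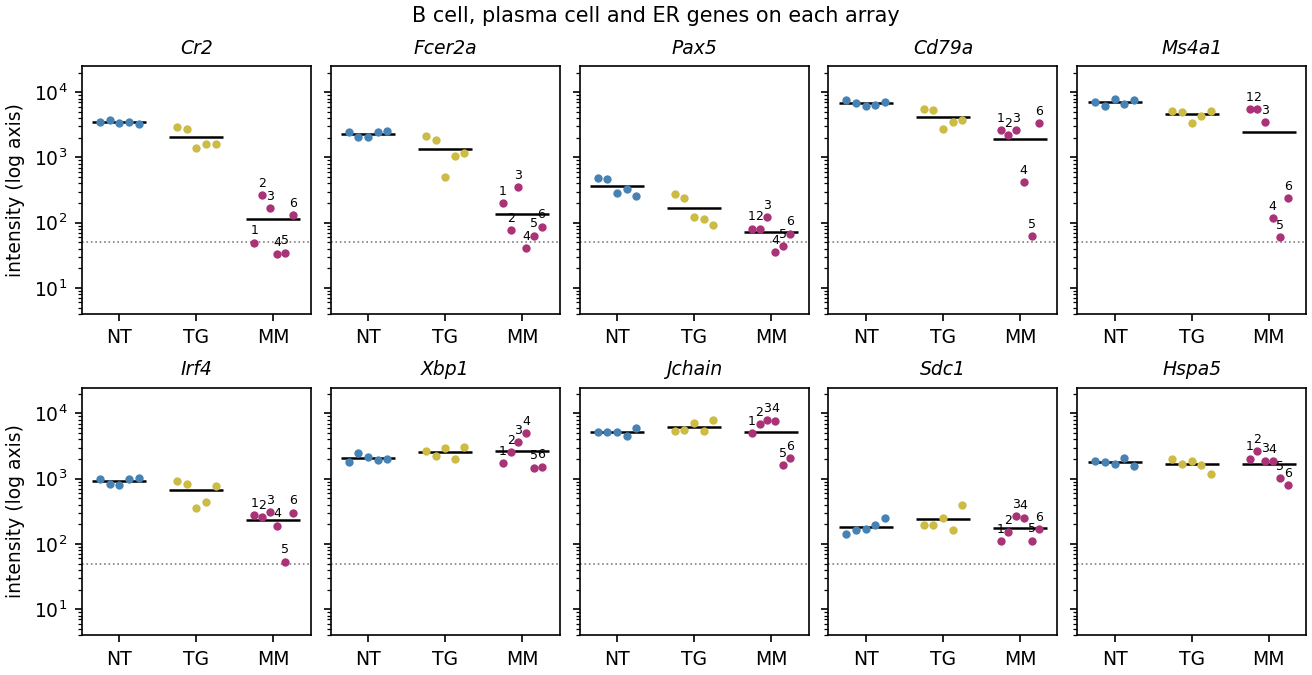
Intensity (log axis) on each array of 10 genes of B cells and plasma cells in nontransgenic B cells (NT), Eμ-xbp-1s B cells (TG) and MM. Points are arrays, MM points carry their replicate number, a black bar gives the arithmetic mean and a dotted line marks 50, the floor; Cr2, Fcer2a, Pax5 and Irf4 of MM lie below all NT arrays, and Xbp1, Jchain, Sdc1 and Hspa5 overlap.

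Of 30 tested transcription factors of the B cell 12 were lower and 2 higher (median -1.55), against 4.76% and 4.66% of all genes, with equal counts without MM4 and MM5. Pax5, the factor that holds B cell identity, was read at 492, 475, 280.5, 327 and 257 on nontransgenic arrays and at 81.3, 81.2, 121, 35.2, 44.1 and 67.8 on MM1 to MM6 (-2.30 ± 0.26, adjusted p = 0.000132, limma). Zfp318 (-3.10), Hhex (-3.09), Bach2, the repressor of BLIMP-1 (-2.92), Bcl11a (-2.74) and Foxp1 (-2.43, all 8 of its probe sets lower) fell too. Klf2, which keeps lymphocytes quiescent and recirculating, fell by 1.86 on the log2 scale, and Foxo1, Pou2f2 (OCT-2) and Id3 had log2 differences of -1.63, -1.61 and -1.49, all called. Id2 rose by 2.11 and Mitf by at least 1.35, and the germinal center factor Bcl6 stood at -0.00 (adjusted p = 0.999). Ebf1, at -2.67, was not called (adjusted p = 0.0125), with MM arrays at 317, 222, 319, 29.4, 18 and 922 against 1151 to 1313 in nontransgenic B cells. Without MM1 to MM3, 21 of the factors were lower, against 17.4% of all genes.

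Genes of receptor signalling and homing were lower in part, against 4.76% of all genes called lower and 4.66% called higher. Of 25 tested genes of B cell receptor signalling 4 were lower (median -1.01): the kinases Syk (-2.07), Btk (-1.83) and Prkcb (-2.18), and Malt1, the protease that links the receptor to NF-kB (-2.24). Of 12 tested MHC class II genes only H2-Oa, a chain of the peptide-loading regulator H2-O, was called (-1.92), although the median was -1.64. H2-Aa, at 7735 to 10001 in nontransgenic B cells, was read at 7486, 8359.5, 8318, 1539.5, 1328 and 2605 on MM1 to MM6 and Cd74, the invariant chain, at 9429, 7377, 8387, 5617, 924 and 1629.9 against 9814 to 10452, so that the low values lay in MM4 to MM6. Of 18 tested homing and retention receptors 8 were lower and 1 higher. Cxcr5, Ccr6, Ccr7 (-3.15 or lower), Gpr183, the oxysterol receptor (-2.70), P2ry10 (-2.55), the sphingosine phosphate receptors S1pr1 (-2.30) and S1pr4 (-2.0), and the integrin Itgb7 (-1.04) fell, and Ccr1, a receptor of CCL3, rose by 2.20. Cxcr4, the receptor of CXCL12 that retains plasma cells in marrow, was read at 2859, 3011, 1261, 1026 and 1214 and, on MM1 to MM6, 747, 759, 812, 766, 814 and 527 (-1.21 ± 0.29, adjusted p = 0.0122), which was not called.

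Of 22 tested plasma cell genes none was higher and 1 was lower, against 4.66% and 4.76% of all genes, with a median of -0.07. For a list of this size the counts are near those shares and set it apart in neither direction. The tumors differed in this list. Its mean log2 level was 8.70 to 8.93 in nontransgenic B cells and 8.85, 8.94, 9.15, 9.01, 7.76 and 8.15 in MM1 to MM6, so that MM5 and MM6 lay below all controls and MM2 to MM4 above them. Without MM4 and MM5, 3 members were lower (median 0.04), and without MM1 to MM3, 3 were lower and 1 was higher (median -0.54). The 1 lower member was Irf4, the factor needed for plasma cells, read at 991, 839, 791, 977 and 1032 on nontransgenic arrays and at 277, 259.6, 307, 190.4, 53.5 and 302 on MM1 to MM6 (-2.19 ± 0.39, adjusted p = 0.0026, limma), with MM5 at the edge of the floor. Sdc1 (CD138, the surface marker of plasma cells) was read at 141, 165, 170.2, 198 and 246 and at 110.3, 152, 264, 254, 113 and 169 (-0.12 ± 0.26, adjusted p = 0.785). Jchain, which joins secreted IgA and IgM, was read at 5272, 5280.2, 5188, 4564 and 6065 and at 4933, 6796, 7843, 7721, 1620.2 and 2046 (-0.27 ± 0.41, adjusted p = 0.669). Prdm1 (BLIMP-1) differed by 0.54 ± 0.25 (adjusted p = 0.144). For Sdc1 and Jchain the nontransgenic arrays lay within the range of the tumors. None of 5 tested immunoglobulin constant genes was called. Ighm (IgM heavy chain) was read at 9978, 10094, 11251, 10809 and 12525 on nontransgenic arrays and at 2208, 758, 7914, 9589, 9394 and 2611 on MM1 to MM6 (-1.51 ± 0.58, adjusted p = 0.0842), so that MM1, MM2 and MM6 were low, and 2 of its 8 tested probe sets were lower. Igha (IgA) stood at 3111, 11193, 1949.7, 2897, 1805 and 2570.1 on MM1 to MM6 and 2051 to 5494 in nontransgenic B cells, and the 1 high MM array was MM2, where Ighm was lowest.

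The machinery that XBP-1s is known to serve held few calls, against 4.66% of all genes called higher and 4.76% called lower. Its levels differed among the tumors. Of 25 tested ER chaperones and folding enzymes 1 was lower and none higher (median -0.12), and none was called among 17 ER-associated degradation genes (median -0.00), 30 genes of translocation and N-glycosylation (0.03) and 28 of ER-to-Golgi traffic (0.01). Under quantile normalization or scaling by array medians, the last 3 of these medians lay on either side of 0, between -0.10 and 0.12. These medians pool tumors on both sides of the controls. Genes of ER-associated degradation had mean log2 levels of 8.79 to 9.05 in nontransgenic B cells, of 9.09, 9.33 and 9.41 in MM1 to MM3, above all controls, of 8.94 in MM4, and of 8.33 and 8.24 in MM5 and MM6, below all controls. Genes of ER-to-Golgi traffic stood at 8.39 to 8.59 in the controls, at 8.66, 8.82 and 8.92 in MM1 to MM3, at 8.57 in MM4, and at 8.18 and 8.03 in MM5 and MM6. Without MM1 to MM3 the medians of the 4 lists were -0.45, -0.36, -0.27 and -0.30, with 2, 1, 3 and 4 members lower, against 17.4% of all genes, and 1 chaperone gene higher, and without MM4 and MM5 they were 0.07, 0.17, 0.11 and 0.08. Hspa5 (BiP, the main ER chaperone) was read at 1838, 1822, 1666, 2055 and 1549 and, on MM1 to MM6, at 2021, 2624, 1882, 1838, 1009 and 789 (-0.19 ± 0.28, adjusted p = 0.677, limma). Hsp90b1 (GRP94) differed by -0.46 ± 0.33 (adjusted p = 0.358). The exception was Ero1b, an ER oxidase, at 893, 860.4, 987, 1012 and 983 against 174, 296, 409.6, 183, 114 and 287 (-2.08 ± 0.28, adjusted p = 0.000404). Among 13 tested UPR sensors and regulators, only Ern1, which encodes the endonuclease that splices XBP-1 mRNA, was called: it was read at 73.6, 75.8, 96.2, 80.7 and 66.7 against 128, 199, 259, 327, 172 and 104, a rise of 1.24 ± 0.27 (adjusted p = 0.0075, up to 0.0232 with 1 array left out; without MM4 and MM5 1.05, adjusted p = 0.0176). Atf6 (-0.00, adjusted p = 0.991) and its proteases Mbtps1 (-0.49, 0.205) and Mbtps2 (-0.34, 0.22) were not called. Of 18 targets of ATF4, the factor of the PERK branch, Atf5 alone rose (1.14 ± 0.26, adjusted p = 0.00844, up to 0.0261 with 1 array left out).

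The promoters of these genes were searched for the elements that the UPR is known to read. The ER stress response element is CCAAT, 9 bases of any kind and CCACG, bound by NF-Y together with ATF6 or XBP-1. It was present, on either strand, in the 250 bases before the start of 10 of 44 RefSeq promoters (22.7%) of the tested chaperone and degradation genes, against 0.113% of all 32851 mouse promoters (GRCm38.p6). The genes were Calr, Canx, Creld2, Derl3, Dnajc3, Ero1b, Hsp90b1, Hspa5, Pdia6 and Syvn1. The octamer TGACGTGG, which XBP-1 and ATF6 can bind alone, was present, on either strand, in 3 of 44 (Txndc5, Ube2j1 and Vcp) and in 0.563% of all. A match is a description of the letters only. The 150 bases upstream of the start of Hspa5 (chr2:34771940-34772089, plus strand) and Hsp90b1 (chr10:86705445-86705594, minus strand), both proximal promoter sequence outside the transcript, are printed 5′ to 3′ with the CCAAT and CCACG of the element, or their reverse-strand forms ATTGG and CGTGG, in capitals and the bases between them in lower case, since they show the element in 2 secretory genes whose levels did not pass the test.
Hspa5: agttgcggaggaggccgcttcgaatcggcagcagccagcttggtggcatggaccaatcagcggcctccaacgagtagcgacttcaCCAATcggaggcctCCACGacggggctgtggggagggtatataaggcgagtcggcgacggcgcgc
Hsp90b1: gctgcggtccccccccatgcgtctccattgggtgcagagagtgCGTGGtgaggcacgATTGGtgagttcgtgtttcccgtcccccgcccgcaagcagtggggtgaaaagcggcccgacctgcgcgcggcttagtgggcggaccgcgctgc
The element lies 65 to 47 bases before the start of Hspa5 and 107 to 89 bases before that of Hsp90b1.

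Most genes of the late cell cycle rose. Of 28 tested genes of G2 and mitosis 23 were higher and none lower in MM, and all 28 had a positive log2 difference (median 1.86), against 4.66% of all genes called higher. Cdk1, the kinase that drives entry into mitosis, was read at 97.3, 162, 376, 312 and 143 on nontransgenic arrays and at 954, 1032, 598, 1187, 1996 and 641 on MM1 to MM6 (2.35 ± 0.39, adjusted p = 0.00148, limma). Birc5 (survivin) was read at 131, 204, 266, 280.1 and 133 and at 800.2, 953, 784, 1639, 3060.1 and 301 (2.35 ± 0.48, adjusted p = 0.00533, up to 0.0184 with 1 array left out). In both, every MM array lay above every nontransgenic array, MM5 was the highest and MM6 or MM3 the lowest tumor. Ccnb2 (cyclin B2, 2.34), Cdca8, a partner of survivin (2.24), Ccna2 (cyclin A2, 2.10), the kinetochore gene Nuf2 (2.09), the spindle motor gene Kif11 (2.05), Prc1, which bundles the central spindle (1.97), Bub1 (at least 1.96), Top2a, the topoisomerase that untangles chromosomes (1.84), Aurka (1.82) and Nek2 (1.30) rose as well. Mki67, the marker of cycling cells, was read at 221, 352, 663, 700.3 and 324 and at 2164, 2509.6, 1669.5, 4629, 6699 and 451 (2.45 ± 0.59) and missed the threshold (adjusted p = 0.0117), as did Ube2c, Cenpa, Cdc20 and Tpx2. Without MM4 and MM5, whose erythroid marker levels were the highest and whose part in this was not tested, 17 members were higher. The count was 9 without nontransgenic array 1, 2 or 5, 14 without nontransgenic array 4 or MM4, 15 without MM2 and 15 without MM1 to MM3 (6.89% of all genes higher in that last fit). Over all probe sets, too, leaving out any 1 nontransgenic array took the higher calls from 864 to between 415 and 498. The list's mean log2 level was 6.69 to 7.64 in nontransgenic B cells, 7.0 to 7.43 in Eμ-xbp-1s B cells and 7.94 to 9.85 in MM.

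**Figure D4:**
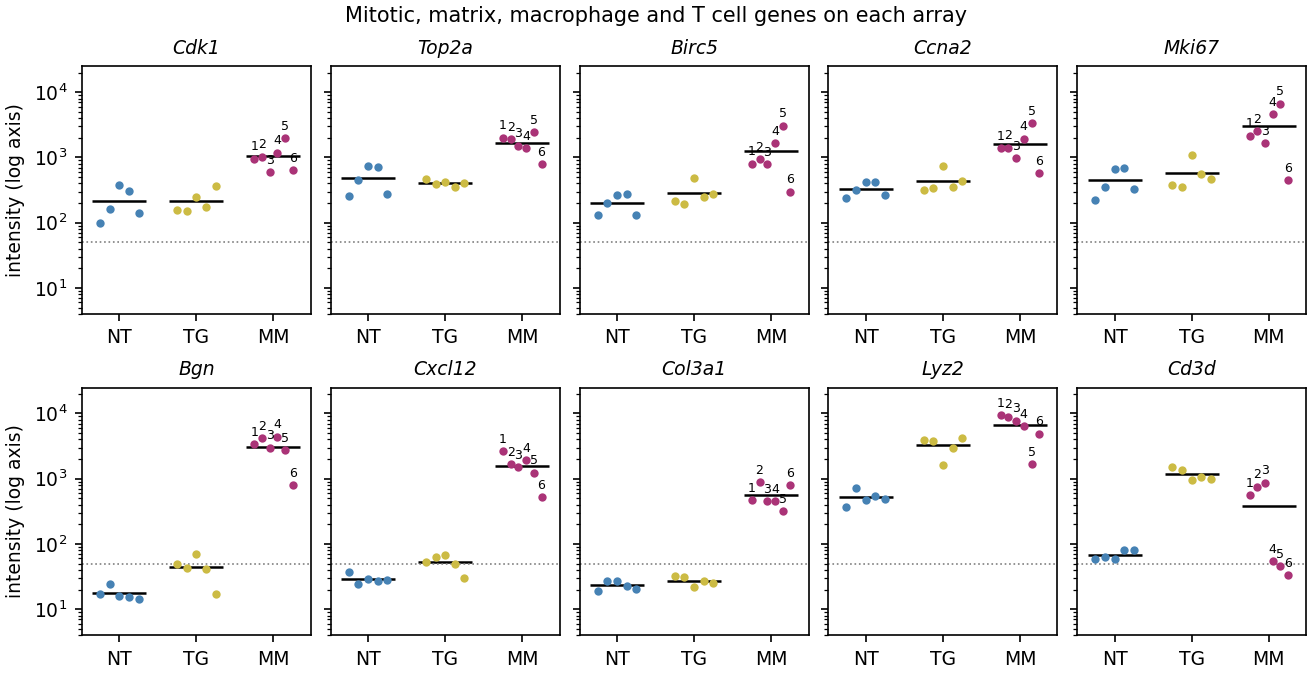
Intensity (log axis) on each array of 5 genes of mitosis (Cdk1, Top2a, Birc5, Ccna2, Mki67) and 5 genes of stroma and other cell types (Bgn, Cxcl12, Col3a1, Lyz2, Cd3d) in nontransgenic B cells (NT), Eμ-xbp-1s B cells (TG) and MM. Points are arrays, MM points carry their replicate number, a black bar gives the arithmetic mean and a dotted line marks 50, the floor; Cdk1 and Bgn are above all NT arrays on every MM array, and Cd3d is high only in MM1 to MM3 of the tumors.

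Late cell cycle genes are known to share promoter elements, the CCAAT box of NF-Y and the cell cycle genes homology region TTTGAA, where a repressor complex sits in resting cells. In the 250 bases before the start and on either strand, CCAAT was present in 17 of 21 promoters (81.0%) of the called mitotic genes, with 20 of the 23 genes matched, and TTTGAA in 6 (28.6%), against 33.8% and 16% of all mouse promoters. Both were present in 5 (23.8%; all promoters 5.55%). Over the tested members, called or not, the shares were 21 and 9 of 25 promoters. To show the elements, 4 promoters of called genes that hold both are printed as the 150 bases before the start (GRCm38.p6), 5′ to 3′ on the gene's strand, with CCAAT and TTTGAA or their reverse-strand forms ATTGG and TTCAAA in capitals: Cdk1 (chr10:69352913-69353062, minus strand), Kif11 (chr19:37376232-37376381, plus strand), Prc1 (chr7:80294326-80294475, plus strand) and Top2a (chr11:99024190-99024339, minus strand), all proximal promoter sequence outside the transcript.
Cdk1: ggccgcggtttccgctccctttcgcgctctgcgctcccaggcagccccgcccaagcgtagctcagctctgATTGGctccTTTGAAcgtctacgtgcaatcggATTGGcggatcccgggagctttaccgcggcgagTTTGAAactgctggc
Kif11: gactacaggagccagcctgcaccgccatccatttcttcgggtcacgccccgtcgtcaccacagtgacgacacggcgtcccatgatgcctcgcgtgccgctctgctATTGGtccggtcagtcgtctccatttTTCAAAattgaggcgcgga
Prc1: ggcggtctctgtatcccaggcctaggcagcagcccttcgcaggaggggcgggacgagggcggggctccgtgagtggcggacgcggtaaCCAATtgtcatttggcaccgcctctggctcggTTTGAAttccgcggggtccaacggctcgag
Top2a: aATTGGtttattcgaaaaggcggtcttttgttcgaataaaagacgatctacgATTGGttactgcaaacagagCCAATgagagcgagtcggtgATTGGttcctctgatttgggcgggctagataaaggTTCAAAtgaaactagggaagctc
In each of these the TTTGAA element closest to the start lies downstream of a CCAAT box, at 15 to 10 bases before the start in Cdk1, 19 to 14 in Kif11, 30 to 25 in Prc1 and 23 to 18 in Top2a.

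Lists of replication and G1 genes held fewer calls than the mitotic list, against 4.66% of all genes called higher. Of 29 tested genes of DNA replication 6 were higher (median 0.93; 4 without MM4 and MM5): Rrm2, a subunit of ribonucleotide reductase (2.36), the loading factors Cdc6 (at least 1.97) and Mcm10 (0.93), Pole2 (1.03), Gins1 (1.28) and Gins2 (0.92). Of 19 tested genes of the cyclin D, CDK4/6 and inhibitor list Ccne2 (cyclin E2) rose by 1.81 and Cdkn1a (the CDK inhibitor p21) by 2.02. Ccnd1 (cyclin D1), a target of a recurrent MM translocation, was read at 107, 85.8, 109, 95 and 118 on nontransgenic arrays and at 602, 617, 363, 168, 121 and 585 on MM1 to MM6. All 6 tumors lay above all controls, but MM4 and MM5 only slightly, and the difference was 1.74 ± 0.42 over all arrays (adjusted p = 0.0115, not called) and 2.37 without those arrays (adjusted p = 3.83e-05). Ccnd2 was read at 711, 1429, 1175, 1251, 445 and 329 against 830.1 to 1232 and was not called (-0.37, adjusted p = 0.506), nor was the inhibitor Cdkn2c (0.70, 0.0219). Cdkn2a did not reach the test, with no array above 57.7.

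Among genes that the study itself singled out, some rose and several did not pass the test. The list was chosen on these samples and its count is not independent evidence. The study drew its array results by SAM from other pairs of groups. It set Eμ-xbp-1s B cells against nontransgenic ones, and MM against Eμ-xbp-1s B cells. Its western blots also showed less MCL1, BCL2, c-FOS and c-JUN protein in MM than in wild-type samples. The values here compare RNA of MM and nontransgenic B cells by limma, so they do not test those results. Of 32 tested members 15 were higher, against 4.66% of all genes (10 without MM4 and MM5, against 4.65%). Maf (c-MAF, a translocation target) was read at 145, 175, 105, 115 and 124 and at 399.5, 719.9, 892, 515, 262 and 212 (1.76 ± 0.35, adjusted p = 0.00419, up to 0.0141 with 1 array left out, limma), with 2 of its 5 probe sets called, and Eμ-xbp-1s B cells lay at 294 to 692. Il6st (gp130, the signal chain of the IL-6 receptor) was read at 122, 143, 80.0, 85.1 and 74 and at 404, 533, 597, 562, 341 and 89.9, so that all tumors but MM6 were above the controls (1.89 ± 0.44, adjusted p = 0.00976, up to 0.0288 with 1 array left out; without MM4 and MM5 adjusted p = 0.0337). Its partner Il6ra was not called (0.47, 0.197), and Il6 was not tested, being read at 1.0, 14.1, 10.9, 132, 260.4 and 13.2 on MM1 to MM6, above 100 only in MM4 and MM5. A wider list of the IL-6 receptor, CEBP and STAT3 held 5 higher members of 16 (3 without MM4 and MM5), against the same shares. Of its 19 members on the array 3 sat at the floor on every nontransgenic array, so the count is a description. The myeloid factors Cebpa (1.96) and Cebpd (at least 2.26), Litaf (1.95) and the interferon-induced membrane protein gene Ifitm3 (3.63) rose, and all are also expressed in the macrophages and neutrophils whose markers stand in the lists described below. Cebpb was read at 287, 498, 522, 1673, 1387 and 128 against 96.4 to 188, highest in MM4 and MM5 (2.0, adjusted p = 0.0252, not called), and Mmp8 was above 100 only in MM4 and MM5 and not tested. Fos was read at 1245, 264, 1375, 1507 and 1097 and at 54, 72.1, 70.9, 539, 756 and 146 (-2.56 ± 0.73, adjusted p = 0.0263; without MM4 and MM5 -3.56, adjusted p = 0.000998), and Jun at -0.03 (adjusted p = 0.958). Of the survival genes, Bcl2 stood at -1.45 (adjusted p = 0.0908, 2 of 5 probe sets lower), Mcl1 at -0.58 (adjusted p = 0.0747, 3 of 6 lower), and Tnfsf13b (BAFF) at 0.07 (adjusted p = 0.79). Myc was read at 363, 349.9, 297, 179.7, 127 and 91.1 against 299.9 to 512 (-0.87 ± 0.35, adjusted p = 0.0978), and Alox5 (at least 0.79, 0.2) and Nsd2 (0.43, 0.119) were not called. Fgfr3 did not reach the test.

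Stromal and matrix genes had the highest median difference of the 46 gene lists. Of 25 members on the array 24 were tested and 19 were higher (median 2.01; 18 higher and 2.08 without MM4 and MM5). Since 11 members sat at the floor on all nontransgenic arrays and could pass the filter on low values through MM alone, this count describes them and supports nothing further. The same holds for the endothelial (6 of 19 members on the array at the floor in every control), chemokine (7 of 19), bone disease (7 of 18), progenitor (4 of 14), IL-6 receptor and CEBP (3 of 19), complement (2 of 15) and insulin-like growth factor (2 of 13) lists. Over all genes 4.66% were higher. Cxcl12 was read at 37.2, 24.3, 28.8, 27.4 and 28 on nontransgenic arrays and at 2670.3, 1652, 1492, 1940.5, 1237 and 517 on MM1 to MM6, and Dcn at 25.9, 20.8, 40.4, 28.9 and 32.2 and at 3366, 2902, 2619, 216, 105 and 1467. Every tumor was above every control, with MM5 lowest for Dcn. Col3a1 rose by at least 3.39 and Col1a2 by 2.87, while Col1a1, the main collagen of bone, was not called (0.53 ± 0.27, adjusted p = 0.179). The list's mean log2 level was 6.16 to 6.33 in nontransgenic B cells, 6.26 to 6.42 in Eμ-xbp-1s B cells, and 9.0, 8.83, 8.69, 8.86, 8.34 and 8.04 in MM1 to MM6. No sort of the tumors is named, and the share of stromal cells in them was not measured. Of 17 tested endothelial genes 5 were higher (3 without MM4 and MM5): Plvap (at least 2.55), Cdh5 (VE-cadherin, at least 2.22), Eng (at least 1.96), Esam (1.26) and Ramp2 (0.93). MM6 was lowest in this list, at 16.7 for Plvap and 29.4 for Cdh5, within or below the nontransgenic values (18.1 to 34.7 and 25.9 to 44.7).

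Several secreted factors that act between such cells rose. The counts of their lists stand against 4.66% of all tested genes called higher. They are descriptions, since members at the floor in every control, counted above, could pass the filter through MM alone. Of 15 tested chemokine ligands 7 were higher: Cxcl12, already counted among stroma, Ccl8 (3.46), the follicle chemokine Cxcl13 (3.26), Ccl6 (at least 2.70), and Ccl3 (1.72), Ccl4 (1.55) and Ccl2 (0.92). Ccl3, an osteoclast-activating chemokine in MM, was read at 65.5, 84.9, 65.9, 101 and 65.9 and at 418, 371, 228, 260.5, 189 and 134. Cxcl9, induced by interferon-γ, was read at 3372, 2965, 1701, 126, 31.8 and 216 on MM1 to MM6 and was not called over all arrays (at least 3.42, adjusted p = 0.0305) but was without MM4 and MM5 (4.79, adjusted p = 0.00101). Of 9 tested bone disease factors (18 on the array) 4 were higher, being these 3 CC chemokines and Frzb, a secreted Wnt antagonist, read at 4.50, 5.60, 4.35, 3.58 and 2.27 and at 279, 213, 197, 444, 349.7 and 9.66 (at least 2.08, adjusted p = 0.00629, up to 0.0182 with 1 array left out). Frzb was high in every tumor but MM6. Complement genes were split: Serping1, C1s1 (2.80), C1qa (2.63) and C2 (1.60) rose, and Cd55, which protects cells from complement, fell by 3.16 on the log2 scale. Of 11 genes of the insulin-like growth factor axis Igfbp4, Igfbp7, Igfbp3 (at least 2.41) and the receptor gene Igf1r (1.05) rose. Igf1r, whose ligand supports MM cells, was read at 115, 109.6, 139, 112 and 106 and at 214, 174, 247, 384, 301 and 177 (adjusted p = 0.00462, up to 0.0156 with 1 array left out).

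Of 22 tested genes of hypoxia and glycolysis 7 were higher (median 0.75), against 4.66% of all genes. Without MM4 and MM5 the count was 5, against 4.65% of all genes. Epas1 (HIF-2α) was read at 53.8, 63.8, 48.2, 53 and 58.5 and at 827, 733, 1056, 874, 653 and 119 (3.41 ± 0.46, adjusted p = 0.000404, limma). Vegfa (at least 1.40), the mitophagy gene Bnip3 (1.72), the hexokinase gene Hk2 (1.48), Egln3 (1.39), Pgk1 (1.13) and Ldha (0.89) rose too. Endothelial cells also express Epas1, and the source of these transcripts was not tested. The medians of the mitochondrial, proteasome and ribosomal lists lay close to 0. Of 25 respiratory chain genes Cycs (cytochrome c) rose by 0.87 (median 0.22), and of 30 proteasome genes none was called (median 0.20). Of 19 ribosomal protein genes Rps27 fell by 1.70 on the log2 scale (median -0.05). The proteasome median pools tumors on both sides of the controls. Its list mean was 9.38 to 9.77 in nontransgenic B cells and 10.2, 10.2, 10.1, 9.49, 9.22 and 8.97 in MM1 to MM6.

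Of the marker lists of non-B immune cells, that of macrophages and monocytes held the most calls. Of 27 tested members 7 were higher and none lower (median 1.38), against 4.66% of all genes higher: the lysozymes Lyz1 and Lyz2 (3.49), the Fc receptor gene Fcgr3 (3.08), the β-glucan receptor gene Clec7a (2.89), C1qa, Lgals3 (1.80) and the scavenger receptor gene Msr1 (at least 1.54). Lyz2 was read at 370.0, 722, 479, 538 and 492 and at 9522, 8947, 7799.6, 6392, 1687 and 4891, Csf1r, the lineage's growth factor receptor, at 3494, 3790.1, 4633, 4956, 2277 and 977 against 881 to 1451 (1.38, adjusted p = 0.0196, not called), and Adgre1 (F4/80) stood at 0.01 (adjusted p = 0.987). Without MM6, 16 members were higher, in a fit that called 7.06% of all genes higher, and MM6 had the lowest list mean of the tumors (8.47 against 9.10 to 10.3; nontransgenic B cells 7.74 to 8.27, Eμ-xbp-1s B cells 8.64 to 9.26). T cell markers held no higher member of 19 and 1 lower, Cd2, which mouse B cells also express (-1.03). Without MM4 and MM5, 4 were higher. Cd3d, which belongs to the T cell receptor complex, was read at 58.3, 63.8, 57.8, 81.1 and 80.4 and at 566, 755, 866, 54.5, 45.3 and 33.1. Eμ-xbp-1s B cells carried more of these (list mean 8.52 to 8.90) than any tumor. None was called among 10 neutrophil, 12 erythroid and 9 megakaryocyte genes tested, nor among 13 natural killer cell genes. The high levels of the first 3 lists, as means over all members on the array, lay in MM4 and MM5 alone of the tumors. A gene above 100 on those 2 arrays only could not pass the filter. Of the members on the array, 7 of 17 neutrophil, 11 of 23 erythroid and 6 of 15 megakaryocyte genes were not tested. The lack of calls therefore says nothing of such genes. Of 9 progenitor genes Kit, the stem cell factor receptor (at least 1.37), Procr (at least 1.32) and Meis1 (1.04) rose, and none was called without MM4 and MM5.

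Lists of chromatin and inducible genes differed in their share of calls, against 4.66% of all genes called higher and 4.76% called lower. The histone and chromatin list held 2 higher of 7, H2az1 (1.46) and Hmgb2 (1.49), both known to follow cell division, and 2 lower, H3f3a (-1.71) and H3f3b. Of 23 interferon-stimulated genes Ifih1 (1.60) and Oasl2 (1.32) rose and Ifi203 (-1.46) fell, and of 16 AP-1 genes Jdp2 alone rose (2.54). None of 18 NF-kB pathway genes was called (median -0.42), but 2 were lower with quantile normalization and 3 with median scaling. Without MM1 to MM3, 8 of them were lower (median -0.80), in a fit that called 17.4% of all genes lower. Of 20 MYC network genes Mga, an antagonist of MYC, fell by 1.15 on the log2 scale and Ldha rose. In the list of BAFF and its receptors, with 7 genes tested, Cd27 rose by 0.80.

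**Figure D5:**
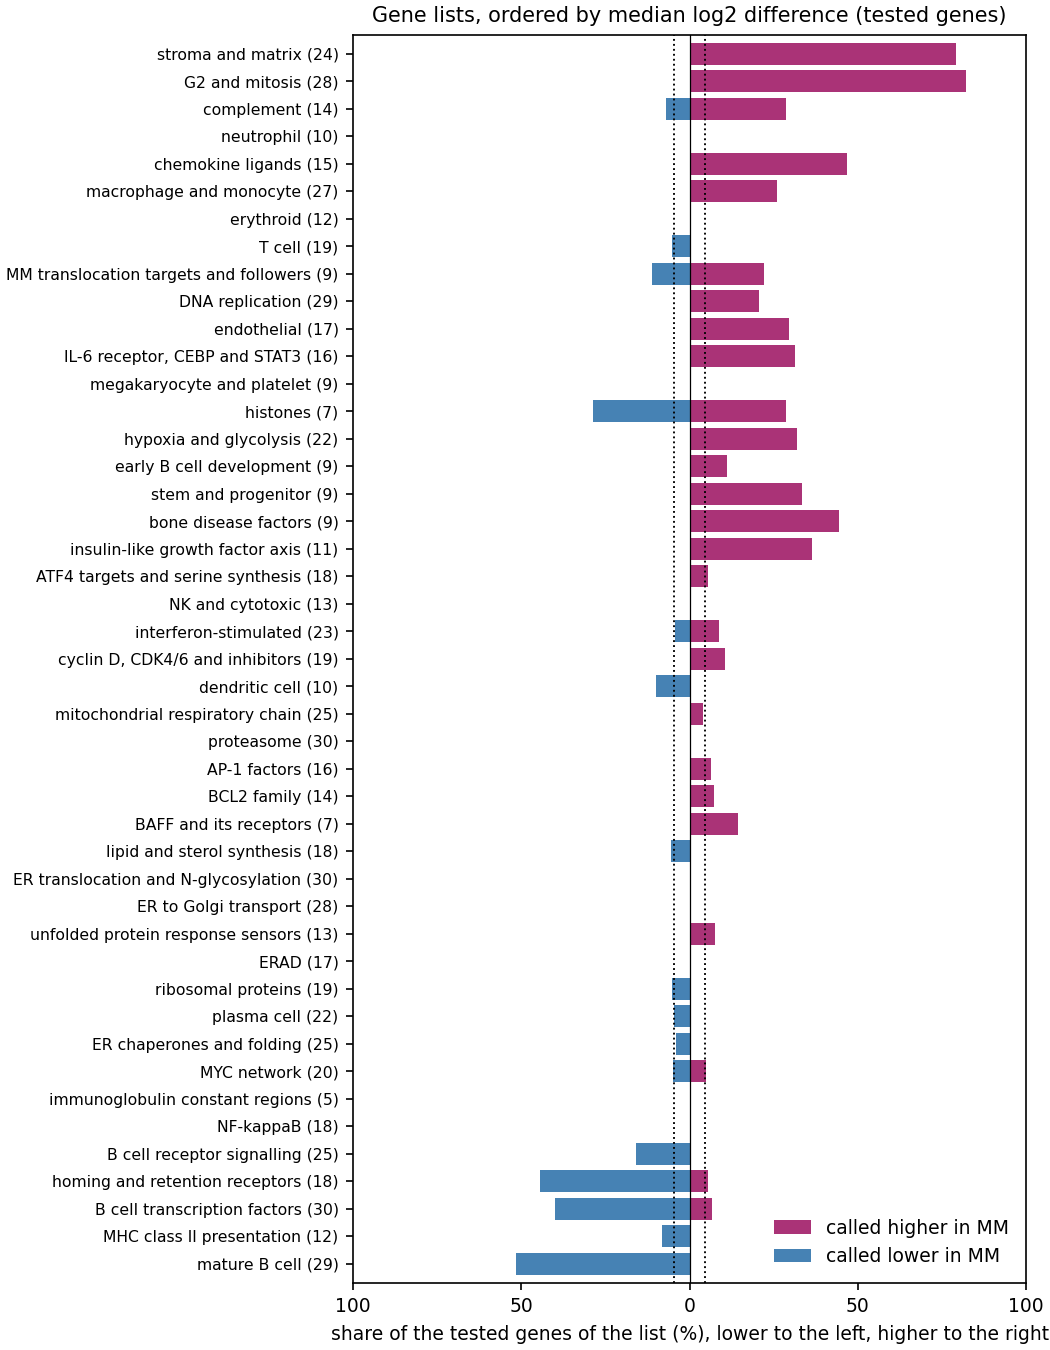
Share of the tested genes of each of 45 gene lists (all but the genes that the study singled out) that was called lower (left) or higher (right) in MM, in percent, with lists ordered by their median log2 difference and the number of tested genes in brackets. Dotted lines mark the shares over all 11079 tested genes (4.76% lower, 4.66% higher); mature B cell and homing genes stand out on the left, G2 and mitosis and stroma and matrix on the right.

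For the 864 probe sets higher in MM the mean log2 level was 6.47 to 6.68 on nontransgenic arrays, 6.97 to 7.22 on Eμ-xbp-1s B cell arrays and 7.74 to 8.47 on MM arrays. For the 1236 lower ones it was 8.65 to 8.85, 8.01 to 8.71 and 6.82 to 7.80. The median log2 difference of Eμ-xbp-1s from nontransgenic B cells over the same probe sets was 0.28 and -0.34. The probe sets were chosen for their difference between MM and nontransgenic B cells, so a smaller one in Eμ-xbp-1s B cells is built in, and both comparisons share the nontransgenic arrays. The values are therefore a description. Cr2 stood at 1398 to 2925 on Eμ-xbp-1s B cell arrays against 33.1 to 263 in MM, Pax5 at 91.5 to 271 against 35.2 to 121, Cdk1 at 149 to 370.1 against 598 to 1996, Cxcl12 at 30.4 to 68.1 against 517 to 2670.3 and Ifitm3 at 1027 to 2219 against 819 to 4446. Eμ-xbp-1s B cells were thus apart from MM on every array for Cr2, Cdk1 and Cxcl12.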

How the data were processed

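Nontransgenic splenic B cells (n = 5) and Eμ-xbp-1s MM (n = 6) were profiled on Affymetrix mouse genome arrays. The authors normalized each array to a baseline array of median intensity and modeled expression in dChip from perfect match minus mismatch probes, and the deposited values are these intensities on a linear scale (sources used here give no dChip version). The lowest deposited value is 1, and intensities under the floor were given no order. The number of arrays limits the precision.

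From the deposited values, 64 control probe sets were left out, intensities were floored at 50 and taken to log2, and those exceeding 100 on over 20% of the 11 arrays were fitted with lmFit and eBayes of limma 3.58.1 (R 4.3.3), with Benjamini-Hochberg adjustment over all 21894 tested probe sets and a threshold of 0.01. Tables were handled in Python 3.11.15 with pandas 2.3.3 and numpy 2.4.6, and plots were drawn with matplotlib 3.10.9. Of 45037 probe sets, 34945 had 1 gene in the platform annotation, 932 had several and 9160 had none listed. Symbols were updated by gene identifier to RefSeq, for 34741 of them. A gene was represented by its brightest probe set over the 16 arrays. Genes named in the text are the 15 largest called rises and falls with no overlap between groups, immunoglobulin genes left out. Also named are up to 4 called members of each list, genes that the study's text names, and defining members of the lists. The remaining names were chosen after their values were seen. The gene lists, and the comparison itself, were chosen with earlier results of these data known. A few genes are not analysed here. Promoter sequences are those of RefSeq (GRCm38.p6). The fit was tested on simulated data with known changes. Alternatives covered the floor, the filter, scaling, the test (SAM, the method of the study, among them), all 3 groups in 1 fit, array weights, a replicate block and leaving out arrays.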

Additional observations from a re-analysis of the deposited data

Results flagged for a closer look

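For the 195 tested genes named in the report, each group was examined for 1 array far from the others, by the gap to its nearest neighbor as a share of the group's range on the log2 scale. In 390 groups examined, 33 had such an array. Chance gives about 1 in 20 groups, but that rate does not hold where arrays were raised to the floor of 50, as in 10 of the 33. Of the 323 groups with no value at the floor, 23 had such an array. Of the 33, 11 concerned MM6, more than for any other array (at most 4).

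MM6 was the lowest tumor in all 11. It stood apart in the glycolysis and hypoxia genes Ldha (2904), Pgk1 (2973), Hk2 (99.8) and Epas1 (119), in the stromal and secreted genes Bgn (789), Frzb (9.66) and Il33 (104), and in Il6st (89.9), Cxcr4 (527), Canx (708) and Atf5 (73.3).

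MM4 was the highest tumor in Fcgr3 (1685), Jdp2 (1108) and Cebpd (510.3). MM5 was the lowest in Irf4 (53.5) and Lyz1 (1097) and the highest in H3f3b (60.7). MM3 was the highest in Ccr7 (159.7), and MM2 in Igha (11193).

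Among nontransgenic arrays, array 1 stood apart in Ccr6 (1503, lowest), H3f3b (1623, highest), Msr1 (66.7, highest) and Vegfa (65.2, highest), and array 2 in Fos (264, lowest), Cd2 (912, lowest), Igfbp4 (64.3, highest) and Kit (51.6, highest). Array 3 was lowest in Cebpa (57.4) and Esam (93). Array 4 was highest in Cxcl13 (74.3) and Ccl6 (61.1), and array 5 in Fcmr (4945) and Alox5 (64.1). For Alox5, Ccl6, Kit and Msr1 all other nontransgenic arrays sat at the floor, which fixes the result.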

How the results depend on the processing

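The direction of every named call was kept under every alternative, in 4004 of 4004 values of 143 genes. Alternatives that changed only the filter, the threshold, the test or the number of groups fitted kept the same log2 differences. Direction could not change in those. Of all called probe sets, 784 of the 864 higher and 1186 of the 1236 lower had no overlap between the groups. Where groups do not overlap, leaving out arrays, weighting them or changing the floor cannot reverse the direction either. The agreement in direction was thus largely fixed in advance. Of the 143 genes 74 lost their call in at least 1 alternative (3 to 51 genes when 1 array was left out). Probe sets higher (864 from all arrays) and lower (1236) numbered 517 higher with a floor of 100, 440 and 721 with no filter, 2072 lower with median scaling, 1673 and 3087 with SAM, 3060 and 2471 with array weights, 1916 and 2724 at an adjusted p under 0.05, and 1379 and 4121 without MM1 to MM3. They ranged from 415 to 1335 and from 640 to 1785 with 1 array left out, and were 807 lower with a replicate block. Of macrophage genes (7 higher), 4 were higher with a floor of 100, 13 with quantile normalization, 14 with SAM, 18 with array weights, 15 at an adjusted p under 0.05, 12 with all 3 groups in 1 fit, 15 with the replicate block and 5 to 16 with 1 array left out. Of mature B cell genes (15 lower), 24 were lower with SAM and at an adjusted p under 0.05, 26 without MM1 to MM3 and 11 to 19 with 1 array left out. Of B cell transcription factors (12 lower), 7 were lower with no filter, 21 without MM1 to MM3 and 8 to 12 with 1 array left out. Of mitotic genes (23 higher), 3 were higher with no filter, 15 without MM1 to MM3 and 9 to 26 with 1 array left out, and of stromal genes (19), 14 to 19. The median distance between arrays of both groups (0.928) was 0.703 with no filter, 1.24 with the SD-over-mean filter, 1.17 without MM1 to MM3, and 0.872 to 1.03 with 1 array left out. With no filter more probe sets share the adjustment. Leaving out arrays leaves fewer samples, yet calls in both directions rose without MM6 and without MM1 to MM3. The cause of the changes was not tested for any alternative. Replicate numbers did not pair the samples: same-numbered arrays of both groups had correlations of their deviations from -0.26 to 0.32. With the number as a block (without MM6) 910 higher and 807 lower probe sets were called, and the same 10 arrays without the block gave 1335 and 1275. Intensities near the floor limit what can be said of genes absent from B cells, whose rises are lower bounds.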

Other observations

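MM6 carried genes of early B cell development that were low in the other tumors. Vpreb1, part of the surrogate light chain of precursor B cells, was read at 4505 in MM6, at 21.6 to 62 in MM1 to MM5 and at 15.8 to 35.8 in nontransgenic B cells. Rag1, the recombinase that assembles antigen receptor genes, was read at 413 in MM6 and at 1.0 to 9.78 in MM1 to MM5. Igll1, the partner of Vpreb1, was read at 592 in MM6 and at 101 to 267 in the other tumors. Igf2, a growth factor, was read at 2860.3 and at 203 to 359, and the stress-responsive gene Nupr1 at 4085 and at 114 to 606. These are values of 1 array, picked after they were seen, and no test of MM6 against the other tumors was made.

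MM4 and MM5 carried transcripts of stress-induced genes besides those of neutrophils and red cells. Ppp1r15a (GADD34) was read at 2361 and 3794 in these tumors, at 121 to 237 in the other 4 and at 257 to 462 in nontransgenic B cells. Ddit3 (CHOP, a factor induced by the UPR and by other stresses) was read at 342 and 845 there, and at 94.7 to 177 in the other 4 tumors. Il6, given above, was above 100 in the same pair of tumors. These genes too were picked after their values were seen.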
